A study of Homo sapiens with 18 samples.

Results

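The EGR, IER and KLF genes described here, with MYC, are immediate early genes, chosen by symbol: EGR1, EGR2, EGR3, IER2, IER3, IER5, KLF4, KLF6, KLF10 and MYC, 10 of the 63677 genes in the deposited count table. All 10 passed the filter on low counts that left 18121 genes for testing. RNA with poly(A) tails was sequenced from 6 groups, each of 3 libraries (18 in all), of the melanoma line WM989, an established cell line of human origin. Cells had been kept for 7 days in EPZ5676 at 4 µM, which blocks the histone methyltransferase DOT1L, or in its solvent DMSO. Each treatment was sampled as cells high for NGFR and EGFR (high cells), as cells low for both (low cells) and as the unsorted culture (bulk cells). The series, which screened for modulators of variability between single cells in therapy resistance, compared cells with and without DOT1L inhibition.

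Immediate early genes are transcribed within minutes of a growth factor, stress or mitogen signal, without new protein synthesis. ERK phosphorylates TCF cofactors of the serum response factor SRF, which is already bound at CArG boxes, and transcription of EGR1 and its relatives starts at once. The EGR and KLF proteins are zinc finger transcription factors that bind GC-rich DNA, the IER proteins are small regulators of growth and survival, and MYC pairs with MAX at E-boxes of genes for ribosome production and growth. In melanoma, where the ERK pathway is often active without a growth factor, several of these genes are steadily transcribed.

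Promoter sequence, 250 bases before the annotated start, was read from RefSeq (GRCh38.p14) for 6 of the 10 genes. EGR3, KLF10 and MYC share a chromosome that was not read for these genes, and IER3 had no promoter entry. The sites below are therefore no survey of all 10 genes. The sequences of EGR1, EGR2, KLF4 and KLF6 are shown because they hold the sites named above. Capitals mark a CArG box (CC, then 6 bases of A or T, then GG), an EGR site (GCGNGGGCG) or an E-box (CACGTG), on either strand. The windows are chr5:138465229-138465478 (plus strand) for EGR1, chr10:62816367-62816616 (minus strand) for the most downstream of 3 EGR2 starts, chr9:107489770-107490019 (minus strand) for KLF4 and chr10:3785210-3785459 (minus strand) for KLF6.
EGR1: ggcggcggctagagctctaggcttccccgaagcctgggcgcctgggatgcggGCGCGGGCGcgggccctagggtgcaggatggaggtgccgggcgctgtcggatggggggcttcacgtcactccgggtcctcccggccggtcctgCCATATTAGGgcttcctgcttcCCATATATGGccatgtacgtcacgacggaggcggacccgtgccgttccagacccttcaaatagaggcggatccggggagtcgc
EGR2: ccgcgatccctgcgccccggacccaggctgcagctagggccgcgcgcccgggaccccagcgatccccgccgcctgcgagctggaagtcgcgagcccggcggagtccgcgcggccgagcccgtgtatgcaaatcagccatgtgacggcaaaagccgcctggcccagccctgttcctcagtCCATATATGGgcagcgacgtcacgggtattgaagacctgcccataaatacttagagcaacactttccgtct
KLF4: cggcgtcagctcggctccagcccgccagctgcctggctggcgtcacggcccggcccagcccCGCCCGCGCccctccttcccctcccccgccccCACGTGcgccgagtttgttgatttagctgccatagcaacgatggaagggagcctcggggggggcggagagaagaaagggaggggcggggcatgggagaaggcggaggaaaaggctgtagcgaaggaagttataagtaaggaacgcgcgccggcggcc
KLF6: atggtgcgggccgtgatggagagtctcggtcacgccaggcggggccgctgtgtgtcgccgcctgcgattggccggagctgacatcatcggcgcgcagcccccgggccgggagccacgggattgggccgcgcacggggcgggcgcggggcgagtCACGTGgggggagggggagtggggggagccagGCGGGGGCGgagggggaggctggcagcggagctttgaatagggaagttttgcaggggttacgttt
EGR1 held 2 CArG boxes, at -105 to -96 and -83 to -74 from the start, and an EGR site at -198 to -190. The EGR2 window shown held a CArG box at -71 to -62. Of the EGR2 starts not shown, the middle start held an E-box at -30 to -25 and the most upstream start held none of these sites. KLF4 held an EGR site at -189 to -181 and an E-box at -157 to -152, and KLF6 held an E-box at -97 to -92 and an EGR site at -65 to -57. Among 35116 promoters of the same length, 1.16% held a CArG box, 8.41% an EGR site and 6.34% an E-box. Neither IER2 nor IER5 held any of these, the palindrome TGACGTCA (in 1.65% of promoters) or the AP-1 site TGANTCA (in 6.57%). A match is a description of letters in this window and no evidence of binding.

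Libraries held 13383741 to 26311674 gene counts. Levels are CPM (counts relative to the library total after TMM scaling), given per library in the order of replicates 1 to 3 or as mean ± SD (n = 3 libraries). Differences between groups are log2 fold changes with their SE, with adjusted p-values from edgeR's quasi-likelihood test and the Benjamini-Hochberg correction over all tested genes, and a gene is called at an adjusted p under 0.05. Nothing says that the replicates came from separate cultures, so p-values measure only the spread between these samples. DMSO bulk replicate 1 stood apart, with 220.3 CPM of the sort gene NGFR against 12.6 and 9.24 CPM in the other DMSO bulk libraries, and it enters the shared estimate of the spread. In 6 libraries, 5 of them EPZ5676 and 1 DMSO high, over 16% of reads fell on no feature. DOT1L itself averaged 184 ± 3.47 CPM in EPZ5676 and 208 ± 11 CPM in DMSO high cells. It was not called between treatments in high, low or bulk cells. DOT1L was called higher in high than in low cells, by 0.64 ± 0.07 under EPZ5676 (adjusted p = 1.82e-07) and 0.73 ± 0.07 under DMSO (adjusted p = 1.52e-08). All 8 melanocyte lineage markers passed the filter, and their summed level was 1851 to 2024 CPM in EPZ5676 high, 1235 to 1448 CPM in DMSO high, 14130 to 14310 CPM in EPZ5676 low and 11340 to 11810 CPM in DMSO low libraries.

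**Figure D1:**
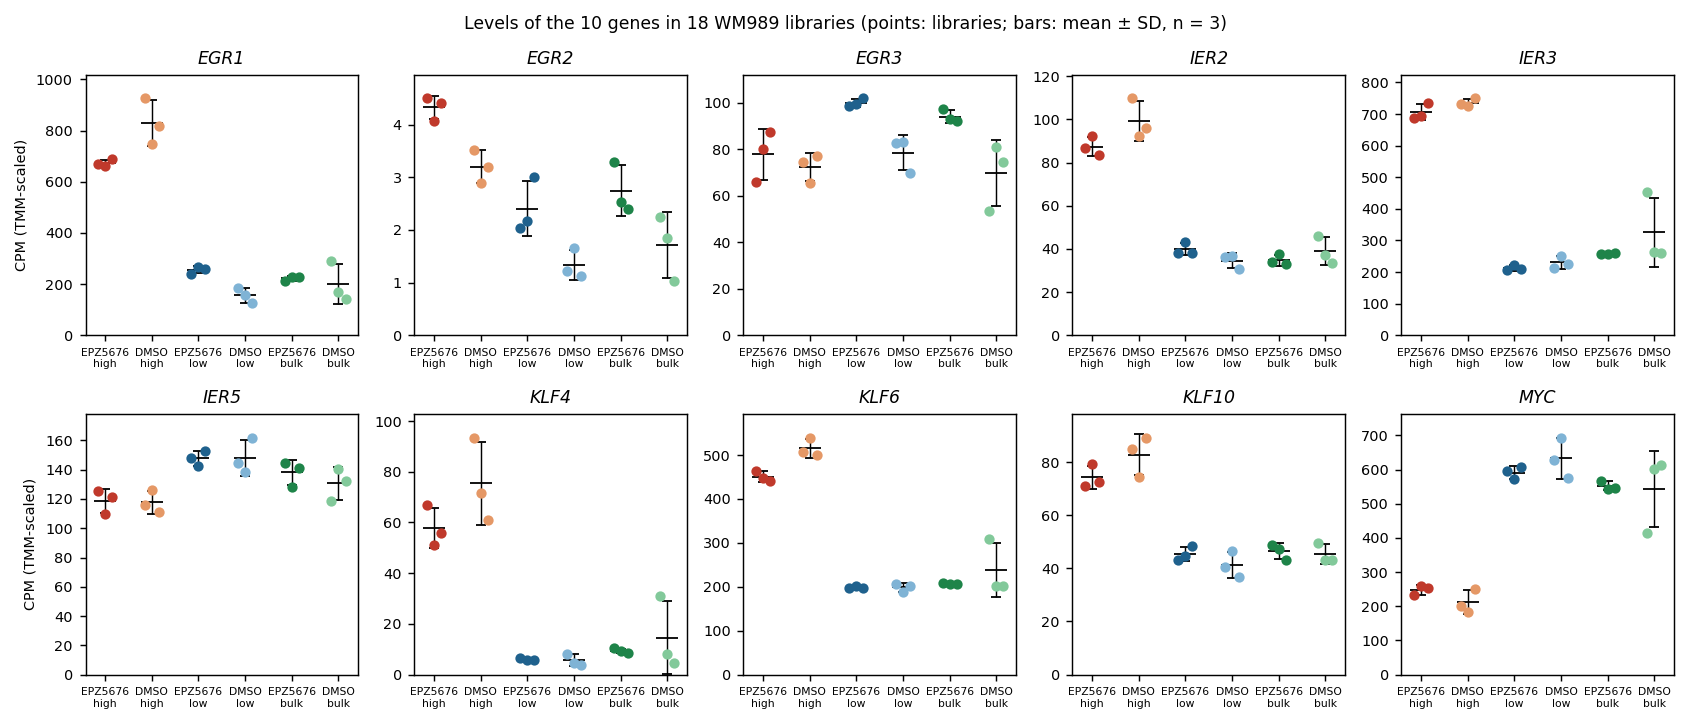
Levels of the 10 genes in each library (points), with mean ± SD (bars, n = 3), in CPM on axes that start at 0. EGR1, EGR2, IER2, IER3, KLF4, KLF6 and KLF10 lie higher in high cells than in low cells under both treatments, and MYC lies lower, at 182 to 259 CPM in high cells against 571 to 694 CPM in low cells.

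High cells carried more RNA of most of these genes than low cells, and less of MYC and IER5. Under EPZ5676, 7 of the 10 genes were called higher and 3 lower, where 25.8% of all tested genes were called higher and 23.1% lower. Under DMSO, 7 were called higher and 2 lower, against 29.6% and 26.7% of all tested genes. The share of all tested genes whose high and low libraries did not overlap is not given here. Where such separation is stated below, it describes the values of that gene and is no result about the 10 genes. The median log2 fold change of the 10 was 0.98 under EPZ5676 and 1.32 under DMSO, beside 0.02 and 0.03 over all tested genes. A lower level in a sorted population could mean fewer cells that express a gene or less RNA per cell, which cannot be told apart here. High and low cells also differ in other cell type markers. Of 7 tested fibroblast markers, of 8 listed, 6 were higher and 1 lower in high cells under both treatments, and their sum was 631 to 777 CPM in EPZ5676 high, 1151 to 1481 CPM in DMSO high, at most 102 CPM in EPZ5676 low and 73.6 to 77.3 CPM in DMSO low libraries. The part of these markers in the results was not tested.

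EGR1, the zinc finger factor that growth factor signals raise within minutes, had 669, 663 and 688 CPM in EPZ5676 high cells, against 240.3, 267 and 259.8 CPM in EPZ5676 low cells. Under DMSO it had 926, 749 and 816.5 CPM in high cells, against 186, 156 and 126 CPM in low cells. The groups did not overlap under either treatment. The log2 fold change was 1.40 ± 0.21 under EPZ5676 (adjusted p = 0.00013) and 2.41 ± 0.22 under DMSO (adjusted p = 9.79e-07). In order of level, DMSO high, EPZ5676 high and EPZ5676 low cells were each apart from the next group, while EPZ5676 bulk, DMSO bulk and DMSO low cells overlapped their neighbours.

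EGR2, the family member known for directing myelination in Schwann cells, was measured from only 22 to 92 counts per library. It had 4.5, 4.1 and 4.4 CPM in EPZ5676 high cells, against 2.0, 2.2 and 3.0 CPM in EPZ5676 low cells. Under DMSO it had 3.5, 2.9 and 3.2 CPM in high cells, against 1.2, 1.7 and 1.1 CPM in low cells. High libraries lay above low libraries under both treatments, by 0.84 ± 0.23 under EPZ5676 (adjusted p = 0.00495) and 1.26 ± 0.26 under DMSO (adjusted p = 0.000226).

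EGR3, which in other tissues acts downstream of neurotrophin and calcium signals, went another way. It had 66.1, 80.2 and 87.5 CPM in EPZ5676 high cells, against 98.7, 99.7 and 102 CPM in EPZ5676 low cells. All EPZ5676 high libraries lay below the low libraries, and the log2 fold change was -0.36 ± 0.13 (adjusted p = 0.0265). Its DMSO values were 74.4, 65.7 and 77.1 CPM in high cells, against 82.9, 83.0 and 69.8 CPM in low cells. Those groups overlapped (-0.12 ± 0.13, adjusted p = 0.452). The EPZ5676 call was lost without EPZ5676 high replicate 1 (adjusted p = 0.12), low replicate 2 (0.0574) or low replicate 3 (0.0674).

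Among the IER genes, IER2, a nuclear protein of growth-stimulated cells, had 86.6, 92.1 and 83.6 CPM in EPZ5676 high cells, against 38.3, 43.2 and 38.3 CPM in EPZ5676 low cells. Its DMSO values were 109.8, 92.1 and 96.1 CPM in high cells, against 36.3, 36.8 and 30.5 CPM in low cells. The groups were apart under both treatments, and the log2 fold change under EPZ5676 was 1.13 ± 0.10 (adjusted p = 5.79e-08). IER3, an ERK-regulated protein that protects cells from apoptosis, had 688, 694 and 735 CPM in EPZ5676 high cells, against 207, 223 and 209 CPM in EPZ5676 low cells. In DMSO cultures it had 732, 724 and 749.9 CPM in high cells, against 213.5, 251 and 226 CPM in low cells. It was higher by 1.73 ± 0.16 under EPZ5676 (adjusted p = 1.39e-06) and 1.68 ± 0.16 under DMSO (adjusted p = 9.64e-07). IER5, known as a partner of phosphatase PP2A that acts on heat shock factor HSF1, moved the other way by a small amount. It had 125, 109.5 and 121.5 CPM in EPZ5676 high cells, against 148, 142 and 153 CPM in EPZ5676 low cells. With DMSO, IER5 had 116, 126 and 111 CPM in high cells, against 145, 138 and 162 CPM in low cells. No high library reached a low library, and IER5 fell by 0.31 ± 0.07 under EPZ5676 (adjusted p = 0.00127) and by 0.33 ± 0.07 under DMSO (adjusted p = 0.000564).

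KLF4, a zinc finger factor known for its use in reprogramming cells to pluripotency, had the largest difference of the 10 genes. It had 66.7, 51.1 and 55.8 CPM in EPZ5676 high cells, against 6.66, 5.58 and 5.62 CPM in EPZ5676 low cells. In DMSO cultures KLF4 had 93.5, 71.7 and 61.2 CPM in high cells, against 8.25, 4.67 and 3.96 CPM in low cells. High libraries were far above low libraries, by 3.29 ± 0.55 under EPZ5676 (9.79-fold, adjusted p = 0.00025) and 3.75 ± 0.55 under DMSO (13.4-fold, adjusted p = 6.55e-05). KLF6, a widely expressed growth regulator, had 464, 448 and 440.2 CPM in EPZ5676 high cells, against 198, 201 and 198 CPM in EPZ5676 low cells. Its DMSO values were 507, 539.9 and 499.8 CPM in high cells, against 205, 187 and 203 CPM in low cells. High libraries were apart from low libraries under both treatments, by 1.18 ± 0.12 under EPZ5676 (adjusted p = 7.98e-07). KLF10, a factor induced by TGF-beta that represses growth genes, had 71.2, 79.3 and 72.7 CPM in EPZ5676 high cells, against 43.1, 44.5 and 48.4 CPM in EPZ5676 low cells. Under DMSO it had 85.0, 74.3 and 89.3 CPM in high cells, against 40.5, 46.4 and 36.7 CPM in low cells. It was higher by 0.71 ± 0.09 under EPZ5676 (adjusted p = 1.07e-06) and 1.01 ± 0.09 under DMSO (adjusted p = 7.26e-09).

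MYC, lower in high cells, differed more than the other genes that were lower there, IER5 and, under EPZ5676, EGR3. It had 232, 259 and 253.5 CPM in EPZ5676 high cells, against 596, 571 and 606 CPM in EPZ5676 low cells. Under DMSO it had 202, 182 and 251 CPM in high cells, against 628, 694 and 576 CPM in low cells. The highest high library, at 259 CPM, lay below the lowest low library, at 571 CPM. MYC was lower in high cells by a log2 fold change of -1.25 ± 0.14 under EPZ5676 (adjusted p = 3.54e-06) and -1.58 ± 0.14 under DMSO (adjusted p = 2.29e-07). Leaving out the 6 libraries in which over 16% of reads fell on no feature sets 1 EPZ5676 high library against 2 EPZ5676 low libraries, and the lone library is assumed to vary like the other groups. In that fit, which called 21.5% of 19455 tested genes, EGR1, EGR2, EGR3, IER5 and KLF4 were not called under EPZ5676 (adjusted p from 0.0539 to 0.509). Their log2 fold changes there were 1.37 ± 0.40 for EGR1, 0.76 ± 0.39 for EGR2, -0.22 ± 0.21 for EGR3, -0.29 ± 0.13 for IER5 and 3.30 ± 1.00 for KLF4.

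**Figure D2:**
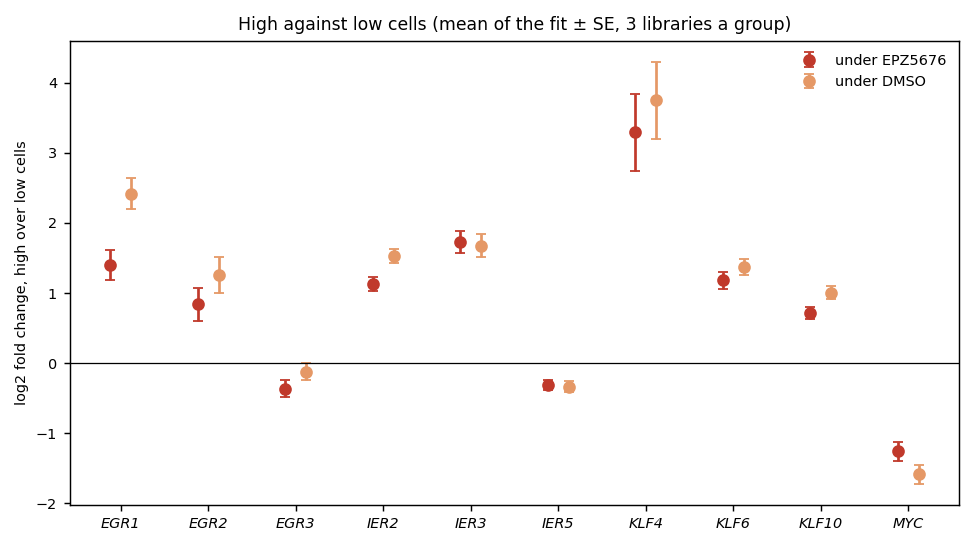
Log2 fold change of high over low cells for each of the 10 genes, with the SE as bars, under EPZ5676 and under DMSO. KLF4 is highest, at 3.29 under EPZ5676 and 3.75 under DMSO, and MYC is lowest, at -1.25 and -1.58.

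Other genes of the same pathways were compared as lists. Beside every list count of high against low cells here and below, 25.8% of all tested genes were higher and 23.1% lower under EPZ5676. Under DMSO these shares were 29.6% and 26.7%. Of 21 tested other immediate early genes, of 22 listed, 17 were higher and 4 lower in high cells under EPZ5676, and 17 were higher and 3 lower under DMSO. Their median log2 fold change was 1.72 under EPZ5676 and 2.17 under DMSO. CCN1, counted as higher, had 1.03 to 2.69 CPM in high libraries and at most 0.143 CPM in low libraries. It passed the filter on low counts through its high libraries, so its direction is no separate result. TRIB1, a pseudokinase, was higher by 0.69 ± 0.08 under EPZ5676 and 0.89 ± 0.08 under DMSO. GADD45B, a stress sensor, was higher by 1.29 ± 0.17 under EPZ5676 and 1.61 ± 0.17 under DMSO. SGK1, a kinase induced by serum and glucocorticoids, went the other way (-0.67 ± 0.06 under EPZ5676 and -0.96 ± 0.06 under DMSO). Of 6 tested genes of SRF and its cofactors, 4 were higher and 0 lower under EPZ5676 and 5 were higher and 0 lower under DMSO. The SRF cofactor MRTFB was higher by 0.89 ± 0.11 under EPZ5676 and 1.09 ± 0.11 under DMSO, and the TCF member ELK3 by 1.87 ± 0.20 under EPZ5676 and 1.91 ± 0.20 under DMSO. With library size alone as scaling, 3 of the 6 were higher under each treatment.

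Among the 9 genes known as EGR1 targets, 6 were higher and 1 lower in high cells under EPZ5676, and 8 were higher and 1 lower under DMSO. PDGFB, counted as higher under both treatments, had no counts in any DMSO low library, so its call there describes detection rather than a measured fold. TGFB1, a growth factor that drives matrix production, stood at 165 ± 6.92 CPM in EPZ5676 high and 60.4 ± 1.06 CPM in EPZ5676 low cells (1.45 ± 0.18, adjusted p = 2.33e-05). VEGFA, which stimulates vessel growth, stood at 422 ± 30.0 CPM in EPZ5676 high and 54.5 ± 6.42 CPM in EPZ5676 low cells (2.95 ± 0.41, adjusted p = 6.66e-05). ICAM1, an adhesion molecule on this list, was lower in high cells by a log2 fold change of -0.50 ± 0.08 under EPZ5676 and -0.68 ± 0.08 under DMSO. The EGR corepressors NAB1 and NAB2 were called higher under DMSO, by 0.29 ± 0.06 for NAB1 and 0.14 ± 0.05 for NAB2, and neither was called under EPZ5676. Of 10 tested other KLF factors, 7 were higher and 1 lower under EPZ5676 and 8 were higher and 2 lower under DMSO. KLF15, known in muscle and liver metabolism, was lower, with log2 fold changes of -1.44 ± 0.16 under EPZ5676 and -1.60 ± 0.16 under DMSO, and KLF9 was higher by 1.34 ± 0.16 under EPZ5676 and 1.35 ± 0.16 under DMSO.

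MYC targets of nucleolar and metabolic function were lower in high cells. Of 32 tested, 25 were lower and 0 higher under EPZ5676, and 31 were lower and 0 higher under DMSO, with medians of -0.41 under EPZ5676 and -0.59 under DMSO. NOLC1, a nucleolar chaperone, stood at 357 ± 10.7 CPM in EPZ5676 high and 568 ± 7.02 CPM in EPZ5676 low cells (-0.67 ± 0.07, adjusted p = 1.89e-07). UTP20, a ribosomal RNA processing factor, was lower too, with log2 fold changes of -0.59 ± 0.07 under EPZ5676 and -0.88 ± 0.07 under DMSO. Of 9 tested genes of the MYC and MAX network, 2 were higher and 4 lower under EPZ5676 and 3 were higher and 4 lower under DMSO. Over all tested genes, 25.8% were higher and 23.1% lower under EPZ5676, and 29.6% and 26.7% under DMSO. MXD4, a MYC antagonist, was higher by 1.71 ± 0.24 under EPZ5676 and 1.99 ± 0.24 under DMSO, while MXI1, another antagonist, was lower, with log2 fold changes of -1.14 ± 0.11 under EPZ5676 and -1.43 ± 0.11 under DMSO. Heat shock genes, which respond to cell handling, did not move together. Of 10 tested, 5 were higher and 1 lower under EPZ5676 and 5 were higher and 3 lower under DMSO. Their summed level was 4689 to 4811 CPM in EPZ5676 high, 4321 to 4737 CPM in DMSO high, up to 5871 CPM in EPZ5676 low and 5859 to 6274 CPM in DMSO low libraries. The same 5 genes were called higher under both treatments: HSPA1A, HSPA1B, BAG3, HSPB1 and DNAJA1. HSPA1A and HSPA1B are near-identical copies, so the split of reads between them is uncertain, but both were called higher. HSPA1A was higher by 1.075 under EPZ5676 and 1.14 under DMSO, and BAG3 by 0.38 under EPZ5676 and 0.61 under DMSO. HSP90AA1 was called lower under both, with log2 fold changes of -0.77 under EPZ5676 and -0.96 under DMSO. The part of cell handling in these differences was not tested.

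**Figure D3:**
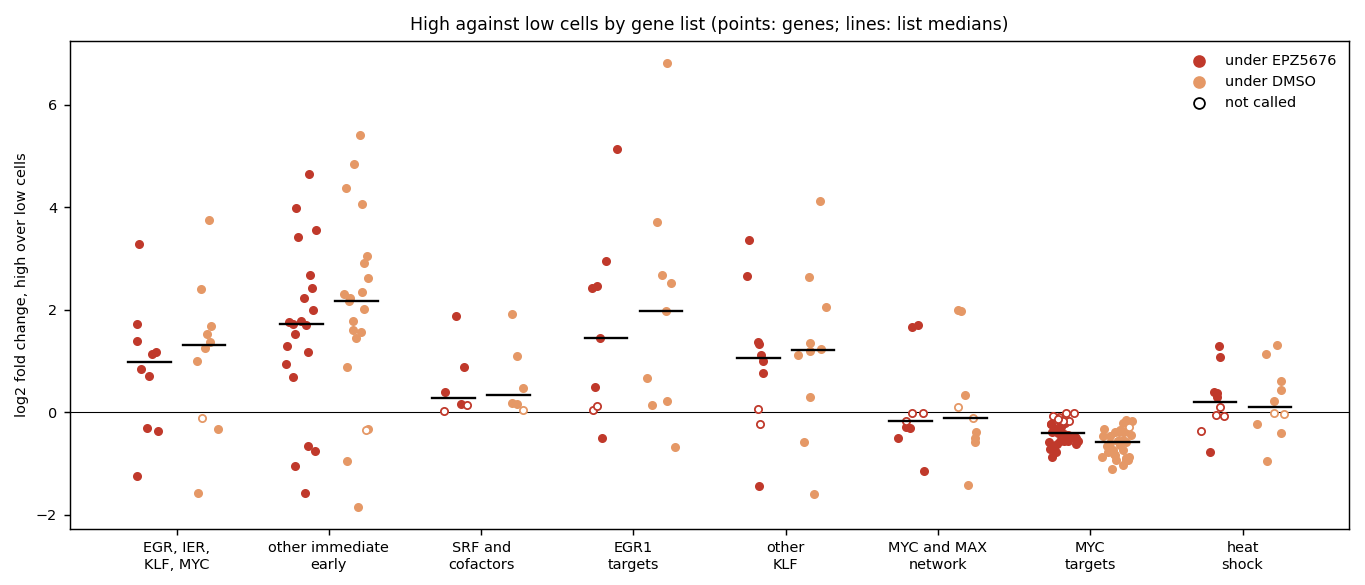
Log2 fold change of high over low cells for every tested gene of the 10 and of 7 related lists (points, open where not called), with list medians as lines, under EPZ5676 and under DMSO. MYC targets lie below 0, with medians of -0.41 under EPZ5676 and -0.59 under DMSO. The highest EGR1 target under DMSO is PDGFB, a growth factor gene with 0 counts in every DMSO low library, so its fitted value of 6.82 is not a bound.

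EPZ5676 moved none of the 10 genes past the threshold in any population. By edgeR, 0 of 10 were called in high cells, where 3.0% of all tested genes were called, 0 of 10 in low cells, where 1.04% were called, and 0 of 10 in bulk cells, where 0.728% were called. At an unadjusted p under 0.05, 2954 genes passed in high cells, 2169 in low cells and 2227 in bulk cells. Of the 10 genes, EGR1, EGR2 and EGR3 were among these in low cells and EGR2 and EGR3 in bulk cells.

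In low cells the EGR genes lay above their DMSO levels. EGR1 averaged 256 ± 13.9 CPM in EPZ5676 low cells and 156 ± 29.8 CPM in DMSO low cells, with the per-library values given above, and the 2 groups did not overlap (0.72 ± 0.21, adjusted p = 0.164). EGR2 averaged 2.40 ± 0.52 CPM in EPZ5676 low cells and 1.34 ± 0.28 CPM in DMSO low cells (0.86 ± 0.26, adjusted p = 0.132). EGR3 averaged 100.1 ± 1.69 CPM in EPZ5676 low cells and 78.6 ± 7.59 CPM in DMSO low cells (0.35 ± 0.13, adjusted p = 0.258). IER2, at 39.9 ± 2.83 CPM in EPZ5676 low cells and 34.5 ± 3.51 CPM in DMSO low cells, also lay above without overlap (0.21 ± 0.10, adjusted p = 0.427). Over all tested genes, 11.6% had every EPZ5676 low library above every DMSO low library. Without DMSO bulk replicate 1, a library of neither group, EGR1 (0.71 ± 0.12, adjusted p = 0.00582), EGR2 (adjusted p = 0.0369) and EGR3 (adjusted p = 0.0148) were called higher, where 3.01% of 18784 tested genes were called higher. With only the groups compared in the fit, which called 1028 genes, EGR2 (adjusted p = 0.0483) and EGR3 (adjusted p = 0.000647) were called higher. EGR3 was also called without a filter (adjusted p = 0.00182), and EGR1 by limma-voom (adjusted p = 0.0474). Over the alternatives, the adjusted p ranged up to 0.736 for EGR1, 0.565 for EGR2 and 0.711 for EGR3.

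In high cells the direction of EGR1 was the other way. It averaged 673 ± 12.9 CPM in EPZ5676 high cells and 830.5 ± 89.7 CPM in DMSO high cells, with no overlap (-0.30 ± 0.21, adjusted p = 0.536). EGR1 was called lower with only the groups compared in the fit (-0.31 ± 0.06, adjusted p = 0.00504), which called 1413 genes, and its adjusted p ranged up to 0.97 over the alternatives. KLF6 stood at 464, 448 and 440.2 CPM in EPZ5676 high cells, against 507, 539.9 and 499.8 CPM in DMSO high cells. Those groups were apart too (-0.19 ± 0.11, adjusted p = 0.443), in a comparison where 12.1% of all tested genes lay wholly below and 12.7% wholly above. Without DMSO bulk replicate 1, KLF6 was called lower (adjusted p = 0.00288), where 4.89% of tested genes were called lower. KLF6 was also called lower with only the groups compared (-0.20 ± 0.05, adjusted p = 0.03). EGR2 averaged 4.33 ± 0.22 CPM in EPZ5676 high cells and 3.20 ± 0.32 CPM in DMSO high cells, above without overlap (0.44 ± 0.23, adjusted p = 0.364). MYC averaged 248 ± 14.2 CPM in EPZ5676 high cells and 212 ± 35.3 CPM in DMSO high cells, and its libraries overlapped (0.23 ± 0.13, adjusted p = 0.438).

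In bulk cells, the values of several genes in DMSO bulk replicate 1 lay far from those of the other DMSO bulk libraries. KLF4 had 10.3, 9.13 and 8.61 CPM in EPZ5676 bulk cells, against 31.0, 8.16 and 4.60 CPM in DMSO bulk cells. MYC had 567.5, 544 and 545 CPM in EPZ5676 bulk cells, against 416, 601 and 614 CPM in DMSO bulk cells. Both overlapped, and with DMSO bulk replicate 1 left out the log2 fold change of KLF4 was 0.56 in place of -0.61, and that of MYC was -0.14 in place of 0.02. EGR3 had 97.3, 92.9 and 92.2 CPM in EPZ5676 bulk cells, against 53.7, 81.2 and 74.6 CPM in DMSO bulk cells. EGR3 libraries were apart (0.43 ± 0.13, adjusted p = 0.166), where 8.21% of all tested genes lay wholly above; it was called without a filter on low counts (adjusted p = 2.07e-05) and by DESeq2 (adjusted p = 0.0305), and by no other alternative. Without DMSO bulk replicate 1 the log2 fold change of EGR3 was 0.27 ± 0.09 (adjusted p = 0.14). EGR2 had 3.3, 2.5 and 2.4 CPM in EPZ5676 bulk cells, against 2.3, 1.8 and 1.0 CPM in DMSO bulk cells. It also lay above without overlap, by 0.70 ± 0.25 (adjusted p = 0.25), and by 0.42 ± 0.25 without DMSO bulk replicate 3 (adjusted p = 0.448). IER3 lay below without overlap, at 258.6, 257.3 and 259.3 CPM in EPZ5676 bulk cells, against 452.2, 264.9 and 260.2 CPM in DMSO bulk cells. The log2 fold change of IER3 was -0.33 ± 0.16 (adjusted p = 0.416), and -0.025 ± 0.054 without DMSO bulk replicate 1 (adjusted p = 0.891). The share of all genes wholly below in bulk cells is not given here.

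**Figure D4:**
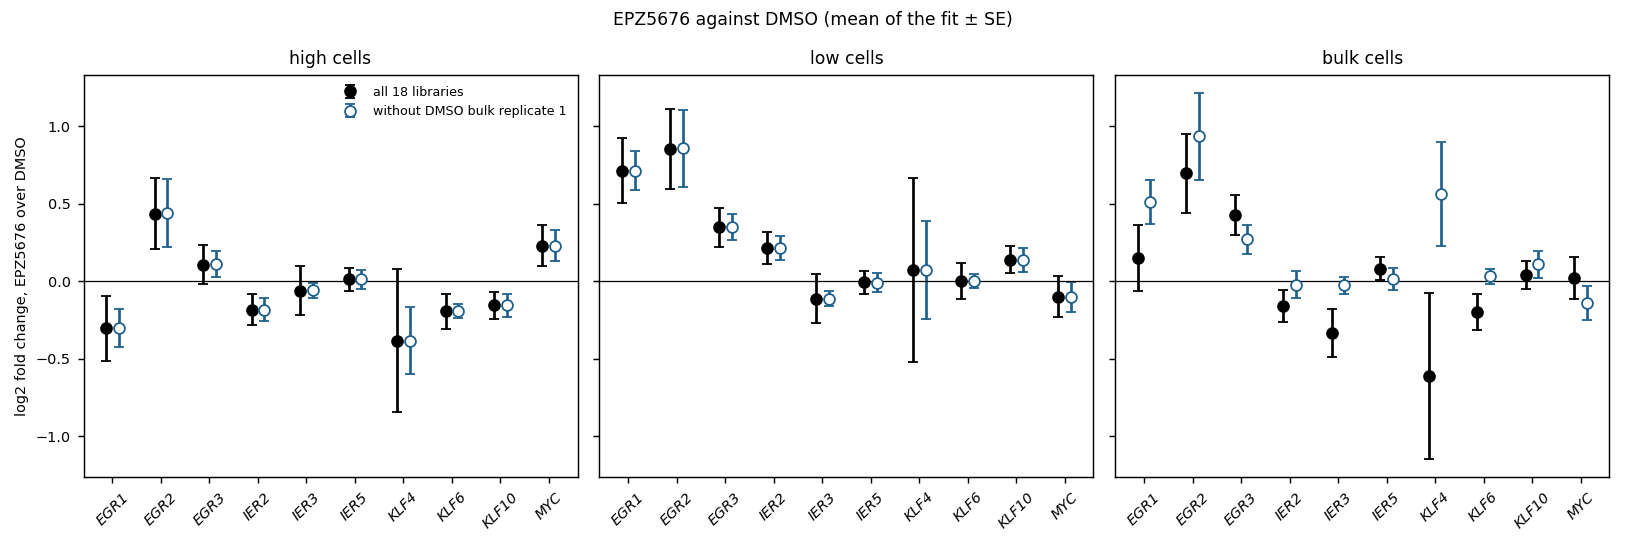
Log2 fold change of EPZ5676 over DMSO for each of the 10 genes in high, low and bulk cells, with the SE as bars, from all 18 libraries (filled) and without DMSO bulk replicate 1 (open). In low cells EGR1 is at 0.72 and EGR2 at 0.86, and in high cells EGR1 is at -0.30. In bulk cells KLF4 is at -0.61 with all libraries and at 0.56 without that library.

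Of the related genes, SGK1 was called higher with EPZ5676 in all 3 populations, by 0.65 ± 0.06 in high cells (adjusted p = 1.17e-06), 0.36 ± 0.06 in low cells (adjusted p = 0.00219) and 0.41 ± 0.06 in bulk cells (adjusted p = 0.00057). It was the only one of the 21 tested other immediate early genes called in any of them. Over all tested genes, EPZ5676 against DMSO called 3.0% in high cells, 1.04% in low cells and 0.728% in bulk cells. NAB1, which represses EGR factors, was called lower in high cells (-0.22 ± 0.06, adjusted p = 0.0387). Of the 32 MYC targets, NOLC1 (0.29 ± 0.07, adjusted p = 0.0276) and CDK4 (0.22 ± 0.06, adjusted p = 0.04), a cell cycle kinase, were called higher in high cells. Among all tested genes, 1.95% were called higher there. In low and bulk cells, 0 of the 32 were called.

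Whether the effect of EPZ5676 differs between high and low cells was tested as an interaction. By edgeR 0 of 10 genes were called, where 0.32% of all tested genes were called and 2011 passed an unadjusted p of 0.05. EGR1 had the largest difference among the 10, at -1.02 ± 0.30 on the log2 scale (adjusted p = 0.208), with EPZ5676 libraries below DMSO libraries in high cells and above them in low cells. IER2 differed by -0.40 ± 0.14 (adjusted p = 0.29) and KLF10 by -0.29 ± 0.12 (adjusted p = 0.372). Without DMSO bulk replicate 1, EGR1 (adjusted p = 0.00524) and IER2 (adjusted p = 0.0245) were called, where 5.71% of tested genes were called. With only the 4 groups compared in the fit, the adjusted p was 0.0174 for EGR1 and 0.0328 for IER2.

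None of the 10 genes was called between low cells and the bulk culture. By edgeR 0 of 10 genes were called under EPZ5676, where 0.00552% of all tested genes were called, and 0 of 10 under DMSO, where 1.09% were called; 1036 genes under EPZ5676 and 3548 under DMSO had an unadjusted p under 0.05. IER3 lay below without overlap under both treatments. It had 207, 223 and 209 CPM in EPZ5676 low cells, against 259, 257 and 259 CPM in EPZ5676 bulk cells (-0.28 ± 0.16, adjusted p = 0.914). Under DMSO it had 213.5, 251 and 226 CPM in low cells, against 452, 265 and 260.2 CPM in bulk cells (-0.50 ± 0.16, adjusted p = 0.12). Over all tested genes, 10.7% under EPZ5676 and 10% under DMSO lay wholly below. Under EPZ5676, KLF4 and KLF6 also lay wholly below bulk cells, and EGR1, EGR3, IER2 and MYC lay wholly above them. The share of all genes wholly above is not given here. With only the groups compared in the fit, which called 847 genes under EPZ5676, EGR1 (0.21 ± 0.04, adjusted p = 0.000893) was called higher. In that fit IER3 (adjusted p = 1.98e-06) and KLF4 (-0.66 ± 0.14, adjusted p = 0.0012) were called lower. Without DMSO bulk replicate 1, IER3 was called lower under EPZ5676 (adjusted p = 0.000311), where 2.29% of tested genes were called lower. Under DMSO, the difference in IER3 was -0.19 ± 0.05 without DMSO bulk replicate 1 (adjusted p = 0.0778), and KLF4 was at -0.18 ± 0.35 and KLF6 at -0.02 ± 0.05 (adjusted p = 0.95 for both). IER3 was called without DMSO bulk replicate 2 (-0.63 ± 0.15, adjusted p = 0.0312) and, with KLF4 and KLF6, without DMSO bulk replicate 3 (adjusted p = 0.0252 for IER3); both fits keep replicate 1.

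The genes most like each of the 10 were found by Pearson's r of log2 CPM over the 18 libraries, which share their 6 groups, so these values describe the pattern over groups. For EGR1 they were DRD2, NOL4L and GLUL, with r of 0.989, 0.986 and 0.985. For EGR2 they were CPEB1, PTX3 and SRC (0.913 to 0.909), and for EGR3 TAF7, MFSD6 and SRP14 (0.868 to 0.835), the lowest of the 10. IER2 was most like ANXA11, ZFP36 and E2F7 (0.990 to 0.986), IER3 like PRNP, ELK3 and TPM4 (0.996 each), and IER5 like LRRC47, NUDT16L1 and KIAA2013 (0.940 to 0.931). KLF4 was most like DLG5, NR4A2 and KLF2 (0.996 to 0.992), KLF6 like RASA1, IRX3 and ATP2B1 (0.998 to 0.997), and KLF10 like LAPTM4A, ANXA11 and NR1D1 (0.979 to 0.975). MYC was most like ETV4, PPARGC1B and IGSF11 (0.993 to 0.992).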

How the data were processed

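Poly(A)-selected RNA of 18 WM989 libraries was analysed, 3 in each of 6 groups by treatment and sort. The authors deposited 1 table of unnormalised read counts, with a row for each library and Ensembl gene. The submitters' processing notes name STAR, HTSeq and the build hg19, and versions, strand setting and annotation are not given in the sources used here. Libraries held 13383741 to 26311674 gene counts, and reads on no feature made up 12.8% to 28.7% of a library; the 5 summary lines stayed out of tests. Of 63677 genes, 52181 took a current symbol and 345 one found only in GENCODE 29.

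In R 4.3.3, edgeR 4.0.16 (filterByExpr, TMM, robust quasi-likelihood) was fitted to 6 group means over all 18 libraries, leaving 18121 genes, with Benjamini-Hochberg adjustment and a threshold of 0.05. The members and lists were chosen with earlier results of these data known. Alternatives were RLE factors, library size alone, DESeq2 1.42.0, limma 3.58.1 (voom), other filters (none, or a mean of 5 CPM or more), fits of only the groups compared, a replicate block, the share on no feature as a covariate, and leaving out libraries. The pipeline was run on counts simulated with a single spread for all genes, no outlying library and no interaction. That run does not show how the tests behave with a library like DMSO bulk replicate 1. The named genes are the 10, for each the 3 genes of highest r, up to 4 called genes of smallest p per list and comparison, and NGFR, EGFR and DOT1L. Over all tested genes, deviations of same-numbered libraries correlated from -0.34 to 0.30, with both signs. Some genes, KLF4 among them, were still highest in replicate 1 of every group. Sequences are from RefSeq GRCh38.p14, used as sequence only, since counts were made on hg19. Tables and figures used Python 3.11.15, pandas 2.3.3 and matplotlib 3.10.9.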

Additional observations from a re-analysis of the deposited data

Results flagged for a closer look

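EGR1 was noted because every EPZ5676 library lay below every DMSO library in high cells and above every DMSO library in low cells. Over all tested genes, 12.1% lay wholly below in high cells and 11.6% wholly above in low cells. The share of genes that met both conditions together is not given here. The difference of the log2 fold changes in high minus low cells was -1.02 ± 0.30, which did not pass the threshold when tested over all 18 libraries (adjusted p = 0.208 by edgeR). With about the same difference, EGR1 passed without DMSO bulk replicate 1 (adjusted p = 0.00524), in a fit that called 5.71% of tested genes. It also passed without that library and with the replicate block (0.00969), and with only the groups compared (0.0174). Its adjusted p ranged up to 0.997 over the alternatives.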

How the results depend on the processing

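Of 2312 values of single genes under alternatives, 2235 kept their direction and side of the threshold, 8 lost a call, 34 gained one and 35 changed sign; the cause was not tested. With each library left out, 9 of the 10 genes were called in high against low cells under DMSO, among 9474 to 10798 genes called in all, and 9 to 10 under EPZ5676, among 8033 to 9496. EGR2 was not tested with a mean of 5 CPM or more.

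Tested genes called with EPZ5676 numbered 543 in high, 188 in low and 132 in bulk cells, 58 in the interaction, and 1 under EPZ5676 and 197 under DMSO in low against bulk cells. Without a filter there were 948 in high, 373 in low and 440 in bulk cells, 304 in the interaction, 49 and 1024 in low against bulk cells. DESeq2 gave 311 in low and 290 in bulk cells, 182 in the interaction, 26 and 916 in low against bulk cells, and limma-voom 0 and 28. With only the groups compared there were 1413 in high, 1028 in low and 2 in bulk cells, 863 in the interaction, and 847 and 0 in low against bulk cells. The no-feature covariate gave 50 in bulk cells and 0 and 77 in low against bulk cells, and library size alone gave 2 under EPZ5676. Without the libraries over 16% on no feature there were 5 in high, 7 in low and 0 in bulk cells, 0 in the interaction and in low against bulk cells, and 4176 in high against low cells under EPZ5676, with 5 of the 10 genes, in a fit with 1 EPZ5676 high library. Leaving out each library gave 200 to 2018 in high, 60 to 968 in low and 39 to 550 in bulk cells, 14 to 1072 in the interaction, and 0 to 496 and 20 to 1565 in low against bulk cells, the highest without DMSO bulk replicate 1, or replicate 3 in the last.

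The replicate block changed no call of the 10 genes, and gave 116 genes in low against bulk cells under DMSO. With the block and without DMSO bulk replicate 1 there were 2030 in high, 982 in low and 513 in bulk cells, 1090 in the interaction and 497 in low against bulk cells under EPZ5676.

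Of the 10 genes, DESeq2 and no filter each called 1 in bulk cells and 1 in low against bulk cells under DMSO, and limma-voom and no filter 1 in low cells. Only the groups compared called 2 in high cells, 2 in low cells, 2 in the interaction and 3 in low against bulk cells under EPZ5676. Without DMSO bulk replicate 1 there were 1 in high cells, 3 in low cells, 2 in the interaction and 1 in low against bulk cells under EPZ5676, or 1, 3, 2 and 2 with the block. Leaving out each library gave 0 to 1 in high cells, 0 to 3 in low cells, 0 to 2 in the interaction, and 0 to 1 under EPZ5676 and 0 to 3 under DMSO in low against bulk cells.

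Log2 values that changed sign in bulk cells were IER5 at -0.020 without the libraries over 16%, MYC at -0.042 with the covariate, and KLF4 at 0.42, KLF6 at 0.027 and MYC at -0.13 with the block and without DMSO bulk replicate 1. In high cells IER3 was at 0.024 without the libraries over 16%. In low cells IER5 was at 0.0072 with library size alone, 0.010 with a mean of 5 CPM and 0.0011 with only the groups compared, KLF4 at -0.00025 without the libraries over 16%, and KLF6 at -0.0011 with RLE factors, -0.012 with no filter and -0.0011 with DESeq2. EGR2 in low against bulk cells under EPZ5676 was at 0.026 without the libraries over 16%. With single libraries left out, bulk cells ranged from -0.047 to 0.51 for EGR1, -1.05 to 0.56 for KLF4, -0.30 to 0.034 for KLF6 and -0.14 to 0.12 for MYC. High cells ranged from -0.026 to 0.069 for IER5, and low cells from -0.055 to 0.061 for IER5, -0.13 to 0.46 for KLF4 and -0.038 to 0.026 for KLF6. Low against bulk cells ranged from -0.56 to 0.0053 for EGR1 under DMSO and -0.087 to 0.0015 for KLF10 under EPZ5676, and the interaction from -0.014 to 0.10 for IER3 and -0.047 to 0.076 for IER5.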

Other observations

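KLF4 had its highest level in replicate 1 of all 6 groups, a pattern chosen after its values were seen. The same held for FOS, FOSB, JUN, JUNB and KLF2 among the other listed genes, and for 54 of 18121 tested genes (0.298%). KLF2, for example, had 85.4, 75.6 and 73.8 CPM in EPZ5676 high cells, against 129, 118 and 93.7 CPM in DMSO high cells.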
